A study of Mus musculus with 13 samples.

Results

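Mitochondrial ribosomal proteins are the nuclear-encoded proteins of the ribosome inside mitochondria, and their genes were examined here in the gastrocnemius muscle of mice that carry a UCP1 transgene. The genes were chosen by name alone: every non-control probe whose gene name starts with Mrpl or Mrps followed by a digit, with pseudogene names left out. This gave 106 probes for 76 genes, 47 of the large subunit (Mrpl) and 29 of the small subunit (Mrps), among 34797 gene names on the array. All 76 genes had a probe above background on all 13 arrays, while 17257 of the 34797 names passed the filter on dim probes. All 76 matched a RefSeq gene whose symbol is unchanged.

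The study put 7 UCP1-TG mice next to 6 wild-type (WT) littermates, all male and of the C57BL/6J strain. The design text gives their age as 12 weeks and the diet, a purified low fat one, as 12 weeks long. All mice of both groups had that diet. UCP1, known from brown fat, lets protons leak across the inner mitochondrial membrane, and the series title places its overexpression in skeletal muscle. The promoter that drives the transgene is not given in the sources used here. Each array held the RNA of 1 mouse in the Cy5 channel and a pool of samples in the Cy3 channel, so each value below is a log2 ratio of the mouse to that pool. Differences are UCP1-TG minus WT on the log2 scale, and a gene passed the test when its limma p-value, adjusted over all 17257 genes by the Benjamini-Hochberg method, was under 0.05.

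The mitochondrial ribosome translates the few messenger RNAs that mitochondrial DNA encodes, which specify core subunits of the respiratory chain complexes and of ATP synthase. Its ribosomal RNAs come from mitochondrial DNA, whereas all of its proteins are made in the cytosol and imported. The small subunit decodes the messenger RNA. The large subunit joins amino acids and is anchored at the inner membrane, where the new proteins are inserted.

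Promoters are shown first for 5 members that the text describes in detail. Mrps30 and Mrpl3 had the largest positive difference of their subunit and Mrpl18 the largest negative difference of all members. Mrps9 is shown for its motif match, and Mrpl55 as the lower gene of largest size whose groups did not overlap. RefSeq promoters (GRCm38.p6, 250 bases before to 50 bases after the start) were found for 67 of the 76 members. Capitals mark a match to any of 6 motifs searched on both strands: NRF1 (GCGC, any base, then TGCGC), the ETS site bound by GABPA (CCGGAAG), YY1 (AAGATGGCG), ERR (TCAAGGTCA), the ATF4 site (TGATGNAA) and the E-box (CACGTG). Sequences run 5′ to 3′ in the direction of the gene.
Mrps30, chr13:118387203-118387502, minus strand: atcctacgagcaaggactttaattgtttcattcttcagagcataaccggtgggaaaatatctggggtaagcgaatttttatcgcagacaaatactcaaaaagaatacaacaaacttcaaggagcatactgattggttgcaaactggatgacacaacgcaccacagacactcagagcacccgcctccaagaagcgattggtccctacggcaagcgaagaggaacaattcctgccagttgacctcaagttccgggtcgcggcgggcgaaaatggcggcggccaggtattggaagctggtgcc
Mrpl3, chr9:105053018-105053317, plus strand: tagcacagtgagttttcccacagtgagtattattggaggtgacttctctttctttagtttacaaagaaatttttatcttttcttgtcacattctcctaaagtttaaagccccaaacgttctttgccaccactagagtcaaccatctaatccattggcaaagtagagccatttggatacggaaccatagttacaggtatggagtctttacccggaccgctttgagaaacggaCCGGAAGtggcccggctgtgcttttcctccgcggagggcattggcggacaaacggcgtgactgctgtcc
Mrpl18, chr17:12916042-12916341, minus strand: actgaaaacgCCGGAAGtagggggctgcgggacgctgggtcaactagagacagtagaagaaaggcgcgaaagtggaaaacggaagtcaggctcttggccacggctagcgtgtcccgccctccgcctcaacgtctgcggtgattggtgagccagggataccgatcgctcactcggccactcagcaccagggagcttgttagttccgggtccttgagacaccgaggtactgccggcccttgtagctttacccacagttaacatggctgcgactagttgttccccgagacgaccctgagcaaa
Mrps9, chr1:42850983-42851282, plus strand: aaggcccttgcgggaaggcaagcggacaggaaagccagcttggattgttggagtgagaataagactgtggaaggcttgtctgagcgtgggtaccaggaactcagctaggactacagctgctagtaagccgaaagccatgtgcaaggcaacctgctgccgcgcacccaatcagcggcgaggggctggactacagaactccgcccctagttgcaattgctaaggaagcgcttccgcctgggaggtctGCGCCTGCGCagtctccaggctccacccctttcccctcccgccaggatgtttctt
Mrpl55, chr11:59202236-59202535, plus strand: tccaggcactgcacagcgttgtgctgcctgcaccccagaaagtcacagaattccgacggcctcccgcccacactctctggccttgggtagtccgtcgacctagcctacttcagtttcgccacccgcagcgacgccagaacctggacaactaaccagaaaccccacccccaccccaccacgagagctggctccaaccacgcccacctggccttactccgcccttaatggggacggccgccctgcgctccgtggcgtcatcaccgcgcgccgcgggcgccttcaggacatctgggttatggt

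Mrpl3 held an ETS match 19 bases before its start, and Mrpl18 held an ETS match 240 bases before its start, in a stretch it shares with the divergent gene Tcp1. Mrps9 held an NRF1 match that begins 5 bases before its start. Mrps30 and Mrpl55 held no match to the 6 motifs in this window. Over the 67 members with a promoter, the ETS match was present in 24 (35.8%), against 9.93% of the 27025 genes in the promoter table. The NRF1 match was present in 12 members (17.9%), against 5.19% of genes, and the YY1 match in 8 (11.9%), against 1.64% of genes. No match to the ERR or ATF4 motif was found in a member, and these motifs occurred in 0.466% and 4.51% of genes. The E-box match was present in 5 members (7.46%), against 8.09% of genes. By direction of difference, the ETS match stood in 5 of 13 members that were higher in UCP1-TG, 5 of 11 that were lower and 14 of 43 that did not pass the test. The NRF1 match stood in 3 of 13, 0 of 11 and 9 of 43, and neither split was tested. These shares describe letters in the window and do not show binding.

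Some facts of the arrays bear on all values below. Between 20643 and 24036 of the 55681 probes (37.1% to 43.2%) were above background per array, and no spot was saturated. Ucp1 itself averaged 0.32 ± 0.38 in UCP1-TG mice (SD, n = 7) and -2.91 ± 1.71 in WT mice (SD, n = 6). Its lowest and highest array values were -0.20 and 0.85 in UCP1-TG. The difference was 3.23 ± 0.50 (SE), with an adjusted p of 5.53e-05. In 5 of the 6 WT mice it lay at -2.82 or below, but the library labelled WT replicate 4 read 0.45, inside the UCP1-TG range. That array is called WT4 below, and its group was taken from its label. In the log2 ratios over all genes, each pair of WT arrays, WT4 included, correlated at 0.516 or more. Pairs of a UCP1-TG and a WT array correlated at 0.152 or less. Counts of members and of the lists, and calls that change, are also given without it. Without WT4 the Ucp1 difference was 3.91 ± 0.196 (SE), with an adjusted p of 2.66e-11. Arrays are named TG or WT with the replicate number of the label. All 12 skeletal muscle markers were detected in both groups. White adipocyte markers moved with the groups: 8 of the 9 measured passed as higher in UCP1-TG, with a median difference of 0.81 and a summed Cy5 signal of 30720 to 58139 in UCP1-TG arrays against 15691 to 36116 in WT arrays. Leptin, a defining adipocyte marker, did not pass the filter on dim probes. Of the skeletal muscle markers 8 of 12 passed as lower and 1 as higher, with a median of -0.57 and a summed signal of 780690 to 1574130 in UCP1-TG and 820516 to 1621560 in WT. Red cell markers passed as higher in 3 of 4 and nerve markers in 3 of 5. In such bulk tissue fewer cells of a type and less RNA per cell cannot be told apart.

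After loess normalization the members did not shift in 1 direction as a family; median centring, given further on, reads otherwise. Of the 47 large subunit genes 7 were higher in UCP1-TG, 9 were lower and 31 did not pass the test. Of the 29 small subunit genes 9 were higher, 2 were lower and 18 did not pass. Over all 17257 genes, 16.8% were higher and 16.1% were lower. The large subunit thus had 14.9% of its genes higher and 19.1% lower, and the small subunit 31.0% higher and 6.90% lower. The median difference was 0.017 over the large subunit and -0.022 over the small subunit, beside -0.0011 over all genes. The differences themselves were small: 75 of 76 were under 0.5 in size, with standard errors of 0.0566 to 0.0988. Whether the subunits differ from each other, or from other genes, was not tested.

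**Figure D1:**
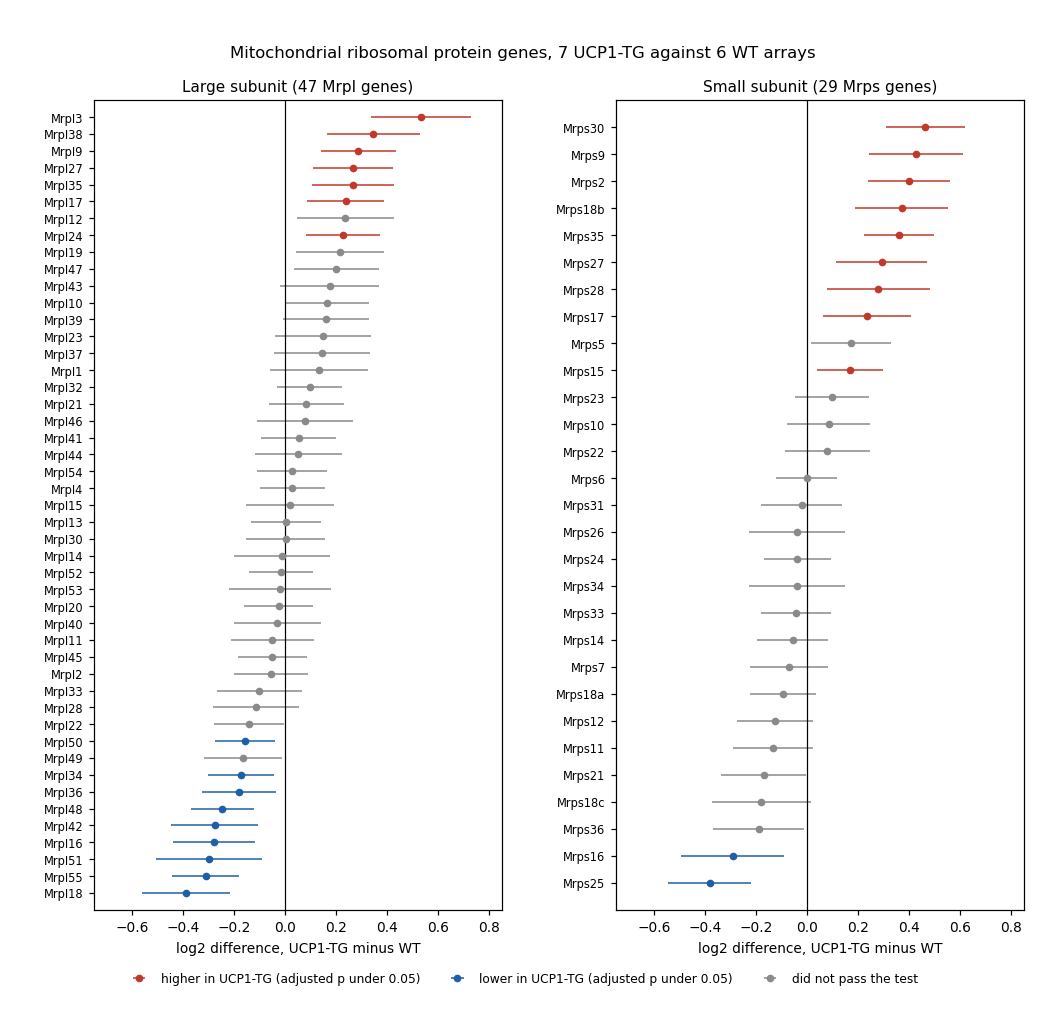
Differences between 7 UCP1-TG and 6 WT arrays for the 47 large subunit genes and the 29 small subunit genes, as log2 values on the horizontal axis, with 95% confidence intervals as bars and 1 gene per line. Red genes passed the test as higher in UCP1-TG (7 large, 9 small), blue genes as lower (9 large, 2 small), and grey genes did not pass; the values run from -0.39 (Mrpl18) to 0.53 (Mrpl3).

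In the small subunit the arrays of the groups did not overlap for 4 of 29 genes (13.8%), Mrps30, Mrps2, Mrps35 and Mrps15, all higher in UCP1-TG, and for no gene in the lower direction. Over all genes, 7.48% did not overlap in the higher direction and 7.28% in the lower direction.

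Mrps30 carries a small subunit name, but structures of the mammalian ribosome place its protein in the large subunit. Its lowest, median and highest log2 ratios were 0.00070, 0.19 and 0.36 in UCP1-TG, against -0.52, -0.27 and -0.15 in WT. Every UCP1-TG array lay above every WT array. The means were 0.17 ± 0.12 (SD, n = 7) in UCP1-TG and -0.30 ± 0.13 (SD, n = 6) in WT, a difference of 0.46 ± 0.073 (SE), or 1.38-fold, with an adjusted p of 6.62e-05 in limma. Its probe lies at chr13:119169203-119169262 in the mm9 build of the array design. Within the 4 slides the difference kept its sign, and it passed the test under each of the 13 other settings tried, the only member to do so.

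Mrps2 is the counterpart of a bacterial protein of the same subunit. Its log2 ratios were -0.13, -0.02 and 0.18 in UCP1-TG (lowest, median, highest) and -0.55, -0.41 and -0.13 in WT. The groups did not overlap, but the lowest UCP1-TG array and the highest WT array differed by less than 0.01. The difference was 0.40 ± 0.076 (SE), with an adjusted p of 0.000436. A dimmer probe of Mrps2 gave 0.18 and also passed, with an adjusted p of 0.0422 over probes.

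Mrps35, a small subunit protein with no bacterial counterpart, read -0.07, 0.09 and 0.28 in UCP1-TG (lowest, median, highest), against -0.35, -0.27 and -0.17 in WT. The WT array nearest to UCP1-TG was WT4. Its difference was 0.36 ± 0.065 (SE), with an adjusted p of 0.000241. Mrps15, the counterpart of a bacterial protein that binds the small ribosomal RNA early in assembly, read -0.31, -0.28 and -0.07 in UCP1-TG and -0.48, -0.37 and -0.34 in WT. The groups were apart by only 0.03, the difference was 0.17 ± 0.062 (SE), and the adjusted p was 0.0459. Mrps15 kept its call in only 4 of the 13 fits that leave out 1 array.

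**Figure D2:**
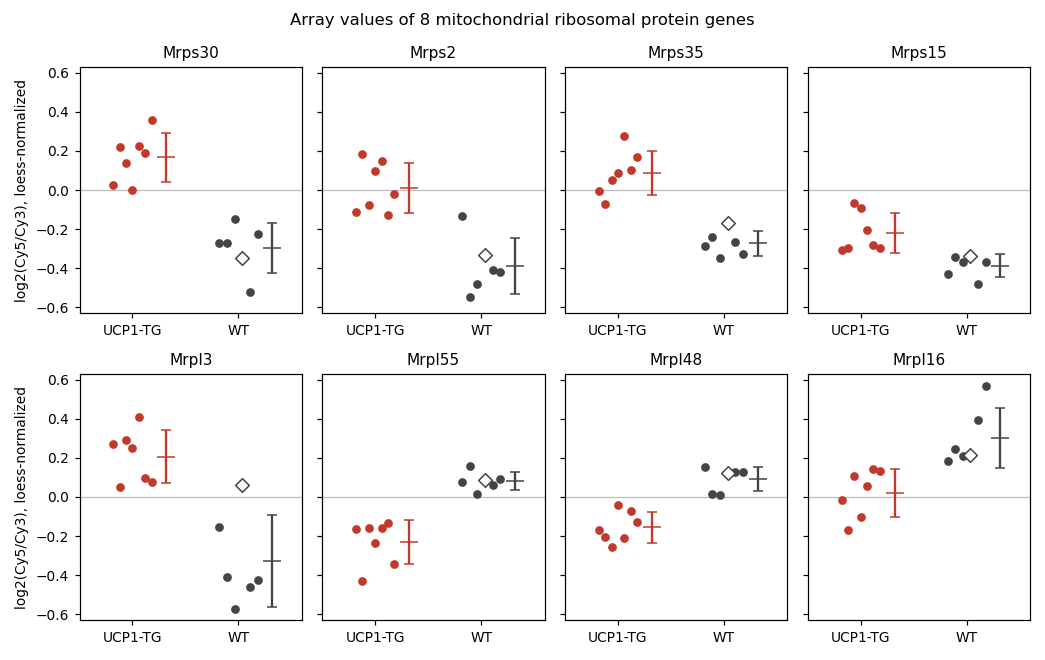
Log2 ratio of each array to the reference pool for 8 genes, 7 UCP1-TG arrays on the left of each panel and 6 WT arrays on the right, with the mean and SD beside the points and WT4 drawn as an open diamond. The groups do not overlap for Mrps30, Mrps2, Mrps35, Mrps15, Mrpl55, Mrpl48 and Mrpl16; for Mrpl3 the WT4 value of 0.06 lies inside the UCP1-TG range.

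The other higher genes of the small subunit overlapped between groups. Mrps9, the counterpart of a bacterial protein whose tail reaches the peptidyl site, had a difference of 0.43 ± 0.088 (SE) and an adjusted p of 0.000835. In UCP1-TG its ratios ran from -0.21 to 0.34 and in WT from -0.55 to -0.15, and 6 of 7 UCP1-TG arrays lay above all WT arrays. Mrps27, a protein with the helical repeats of RNA-binding proteins, reached 0.29 (adjusted p 0.0119). Mrps28 reached 0.28 (0.0329) and Mrps17, the counterpart of a bacterial RNA-binding protein, 0.23 (0.0333). Mrps9 is shown in this detail because of its size, a choice made after its values were seen.

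Mrps18a, Mrps18b and Mrps18c are paralogues, all related to the same bacterial protein, and the product of Mrps18a sits in the large subunit. Mrps18b read -0.22, 0.08 and 0.31 in UCP1-TG (lowest, median, highest), against -0.56, -0.29 and -0.15 in WT. It passed the test as higher, with a difference of 0.37 ± 0.086 (SE) and an adjusted p of 0.00244. All 3 of its probes gave a positive difference, 0.37, 0.48 and 0.44. Mrps18c read -0.37, 0.17 and 0.35 in UCP1-TG and 0.15, 0.24 and 0.45 in WT, a difference of -0.18 with a 95% interval of -0.38 to 0.02 (adjusted p 0.152). Mrps18a read -0.26, -0.16 and 0.03 in UCP1-TG and -0.10, -0.03 and 0.03 in WT, a difference of -0.10 with an interval of -0.23 to 0.03 (adjusted p 0.254). Of the 3 paralogues only Mrps18b therefore passed the test, and the intervals of the other 2 did not reach its value. The difference between paralogues was not tested itself.

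The lower genes of the small subunit were Mrps25 and Mrps16. Mrps25, which has no bacterial counterpart, read -0.52, -0.31 and -0.07 in UCP1-TG (lowest, median, highest), against -0.11, 0.09 and 0.27 in WT. That is a difference of -0.38 ± 0.077 (SE), with an adjusted p of 0.000706, and 6 of 7 UCP1-TG arrays lay below all WT arrays. This gene was picked for its size after its values were seen. Its dimmer probe did not show the drop and gave 0.07 (adjusted p 0.433 over probes), so the call rests on the brighter probe. Mrps16, the counterpart of a bacterial assembly protein, had a difference of -0.29 ± 0.096 (SE) and an adjusted p of 0.0241.

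Mrps36 is named for the small subunit, but later work ties its protein to the oxoglutarate dehydrogenase complex of the citric acid cycle. It read -0.62, -0.23 and -0.10 in UCP1-TG (lowest, median, highest) and -0.34, -0.10 and 0.14 in WT. The groups overlapped and the difference of -0.19 had an interval of -0.37 to -0.01 and an adjusted p of 0.0935. A dimmer probe gave -0.19 as well and had an adjusted p of 0.0436 over probes. Mrps36 and Mrps18c were the small subunit genes with the largest differences that did not pass.

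In the large subunit, the members whose groups did not overlap were all lower in UCP1-TG: Mrpl55, Mrpl48 and Mrpl16. These 3 of 47 genes (6.38%) are a share near the 7.28% over all genes, so the count says nothing particular about the subunit. Mrpl55, the counterpart of a bacterial protein that bridges the subunits, read -0.43, -0.16 and -0.13 in UCP1-TG (lowest, median, highest), against 0.02, 0.08 and 0.16 in WT. All UCP1-TG arrays were below 0 and all WT arrays above it. The means were -0.23 ± 0.11 (SD, n = 7) and 0.08 ± 0.05 (SD, n = 6), a difference of -0.31 ± 0.063 (SE) or 1.24-fold lower, with an adjusted p of 0.000709. Its probe lies at chr11:59019327-59019386 (mm9).

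Mrpl48, a protein of the central protuberance of the large subunit, read -0.26, -0.17 and -0.04 in UCP1-TG and 0.01, 0.12 and 0.15 in WT. The difference was -0.25 ± 0.059 (SE) and the adjusted p 0.00298. Mrpl16, the counterpart of a bacterial protein near the site where transfer RNA is accommodated, read -0.17, 0.06 and 0.14 in UCP1-TG and 0.18, 0.23 and 0.57 in WT. The difference was -0.28 ± 0.077 (SE) with an adjusted p of 0.00766.

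Mrpl18 and Mrpl3 had the largest differences of the large subunit and are given for that reason, after their values were seen. Mrpl18, whose protein belongs to the central protuberance, read -0.37, -0.25 and 0.07 in UCP1-TG (lowest, median, highest) and 0.02, 0.18 and 0.46 in WT. Only the highest UCP1-TG array (TG2) and the lowest WT array (WT3) overlapped, and the difference was -0.39 ± 0.083 (SE), or 1.31-fold lower, with an adjusted p of 0.00113. Mrpl3, an early-assembling protein near the peptidyl transferase centre, read 0.05, 0.25 and 0.41 in UCP1-TG and -0.57, -0.42 and 0.06 in WT. The difference was 0.53 ± 0.094 (SE), or 1.45-fold, with an adjusted p of 0.000193. The single WT array inside the UCP1-TG range was WT4. Without it the groups did not overlap and the difference was 0.61.

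The remaining called genes of the large subunit were smaller in size. Higher were Mrpl38 of the central protuberance (0.35, adjusted p 0.00434), Mrpl9 (0.29, 0.00365), Mrpl27, whose bacterial counterpart reaches into the catalytic centre (0.27, 0.00921), Mrpl35 (0.26, 0.0113), Mrpl17 (0.24, 0.0167) and Mrpl24 of the exit tunnel (0.23, 0.0159). Lower were Mrpl51 (-0.30, 0.0249), Mrpl42 (-0.28, 0.0129), Mrpl36 (-0.18, 0.0486), Mrpl34 (-0.17, 0.0351) and Mrpl50 (-0.16, 0.0386). Mrpl50 had a dimmer probe with a difference of 0.17 (adjusted p 0.0550 over probes), opposite in sign to the first. The call for Mrpl50 therefore depends on which probe is read.

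Mrpl12 and Mrpl19 came closest to the threshold without passing. Mrpl12, a stalk protein that also binds the mitochondrial RNA polymerase, read -0.37, -0.16 and -0.02 in UCP1-TG (lowest, median, highest) and -0.72, -0.35 and -0.16 in WT. The difference was 0.24 ± 0.091 (SE) and the adjusted p 0.0542. Mrpl19 read -0.40, 0.07 and 0.15 in UCP1-TG and -0.34, -0.22 and -0.12 in WT, a difference of 0.22 ± 0.082 (SE) with an adjusted p of 0.0504. For Mrpl19 a single UCP1-TG array, TG6 at -0.40, lay below all WT arrays while the other 6 lay above them.

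By position in the ribosome, the counts are set beside the 16.8% higher and 16.1% lower over all genes. None of the 5 genes of the L7/L12 stalk and its base passed the test, and their median difference was 0.03. At the polypeptide exit tunnel 1 of 7 was higher (Mrpl24) and none lower, with a median of 0.15. This count depends on which probe is read. A slightly dimmer probe of Mrpl23 gave 0.23 and passed (adjusted p 0.0151 over probes), as did a dimmer one of Mrpl47 (0.28, 0.00705). Still dimmer probes of Mrpl47 and the dimmer probes of Mrpl22 and Mrpl39 did not pass. At the central protuberance 2 of 8 were higher (Mrpl38, Mrpl27) and 3 lower (Mrpl18, Mrpl55 and Mrpl48), with a median of -0.02. Of the 30 large subunit genes with a bacterial counterpart 6 were higher and 5 lower, shares of 20% and 16.7% that lie near those over all genes. Of the 17 without one, 1 was higher and 4 were lower. Among genes named for the small subunit, 6 of 18 with a bacterial counterpart were higher and 1 lower, and 2 of 9 without one were higher and 1 lower. The 18 include Mrps18a, although its product sits in the large subunit. Mrps30, which was higher, and Mrps36, which did not pass, are in neither group. Without WT4, 1 of the 5 stalk genes (Mrpl12) was higher, and of the 30 large subunit genes with a bacterial counterpart 8 were higher and 3 lower. Of the 17 large subunit genes without one, 1 was then higher and 3 lower. Of the 18 small subunit genes with a counterpart, 5 were then higher and 1 lower.

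**Figure D3:**
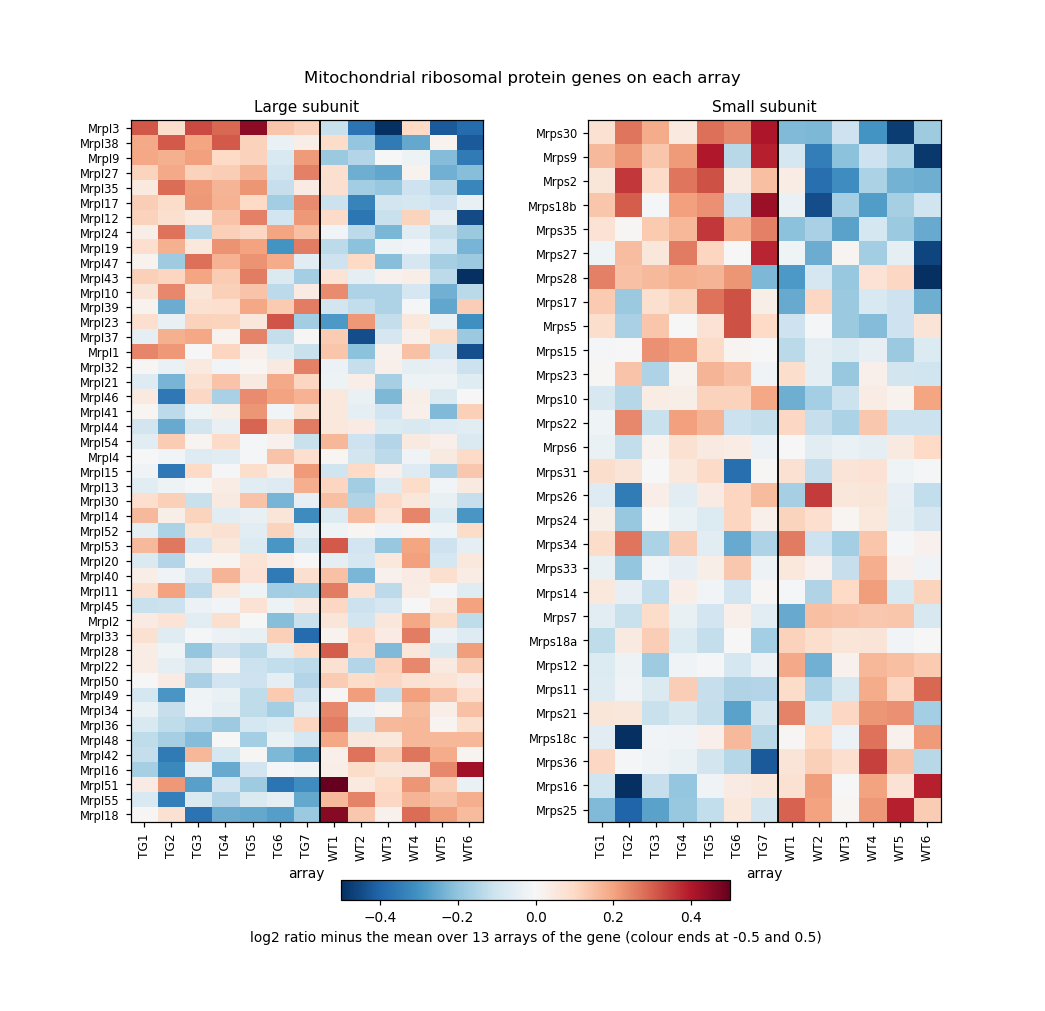
Each of the 76 genes on each array, as the log2 ratio minus that gene's mean over the 13 arrays, with the 7 UCP1-TG arrays left of the black line and the 6 WT arrays right of it; genes run from the largest positive difference at the top to the largest negative one at the bottom. Red is above the gene's mean and blue below it, and the middle rows, which did not pass the test, show single arrays apart from the rest, such as TG2 for Mrps18c (a log2 ratio of -0.37).

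The direction of each called gene did not depend on a single slide. The arrays lay on 4 slides, each holding both groups, and all 27 called members kept 1 direction on every slide. Single arrays stood for a group on most slides: WT1 on slide 1, TG3 on slide 2 and WT4 on slide 3. Of the 49 members that did not pass, 19 also did. Since the calls were made from the same arrays, this share is partly built in. Without WT4, all 27 called members kept their direction and 23 kept their call, and no difference among them moved by more than 0.0773. Leaving out each array in turn kept the call of 19 of the 27 members in all 13 fits. The rest kept it in fewer fits: Mrpl36 in 3, Mrpl50 and Mrps15 in 4, Mrps28 in 5 and Mrps17 in 6. Mrpl34 kept it in 7, Mrpl51 in 9 and Mrps16 in 12. In the fit without WT4, the large subunit had 9 higher and 6 lower genes and the small subunit 8 higher and 2 lower, beside 16.7% higher and 15.9% lower over all genes. Mrpl12 (adjusted p 0.0231) and Mrpl19 (0.0456) then passed, while Mrpl34 (0.0705), Mrpl36 (0.0909), Mrpl50 (0.0555) and Mrps15 (0.0513) did not.

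How many members are read as lower depends on the normalization. Loess removes a trend of the ratio with brightness within each array. With each array centred on its median and no loess, the median of all genes shifted to 0.14, and the calls over all genes became 6.03% higher and 1.54% lower, so that 79.7% of calls were higher, against 51.1% after loess. Among the members 1 large subunit gene (Mrpl3) and 2 small subunit genes (Mrps30 and Mrps2) then passed as higher and none as lower. The members' standard errors ran from 0.149 (Mrpl28) to 0.244 (Mrpl12) in this setting, against 0.0566 to 0.0988 after loess. Mrps18b and Mrps9 reached 0.67 and 0.65, more than after loess, yet did not pass (adjusted p 0.0724 and 0.0774). The genes called lower after loess shrank in size or changed sign. The medians were 0.30 over the large and 0.26 over the small subunit, or 0.16 and 0.11 above the median of all genes. Mrpl18 and Mrps25 were still the lowest of their subunits, at -0.11 and -0.13. In the table of the authors' own values, 9 large and 9 small subunit genes were higher, 2 large and 1 small were lower, and the medians were 0.09 and 0.03. Over the 17010 genes of that table, 15.6% were higher and 16.9% lower with a median of -0.03, so the members' medians lay 0.11 and 0.06 above it. A positive difference was found for 72.3% of the large and 72.4% of the small subunit genes there, and for 91.5% and 96.6% under median centring.

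**Figure D4:**
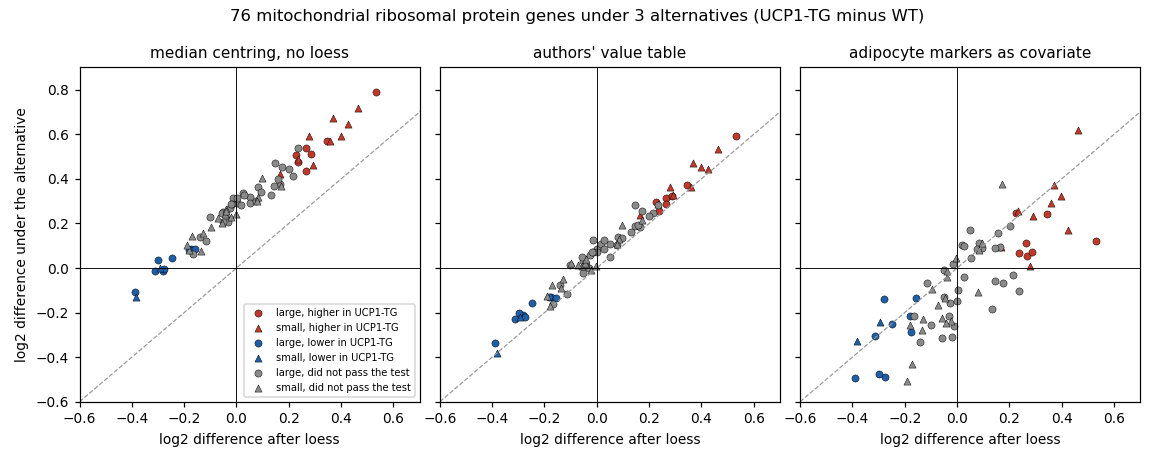
Log2 difference (UCP1-TG minus WT) of the 76 genes after loess on the horizontal axis against 3 alternatives on the vertical axes, with circles for the large and triangles for the small subunit and the dashed line marking equal values. Under median centring nearly all points lie above the line and the medians are 0.30 and 0.26. In the authors' table the points lie closer to the line, but nearly all are again above it. With the adipocyte markers in the fit the points scatter more and Mrps30 stays high at 0.62.

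With the mean of the white adipocyte markers as a covariate, 0 large subunit genes were higher and 1 lower (Mrpl42), and 1 small subunit gene was higher (Mrps30) and 1 lower (Mrps36). Over all genes 5% were then higher and 5.06% lower. Mrps30 had a difference of 0.62 ± 0.14 (SE) and an adjusted p of 0.00788 in that fit, and Mrps36 had -0.51 with an adjusted p of 0.0316. Mrpl3 had a difference of 0.12 (adjusted p 0.704), while Mrps18b kept one of 0.37 and did not pass either (adjusted p 0.204). The members' standard errors in that fit ran from 0.113 (Mrpl50) to 0.191 (Mrps16), against 0.0566 to 0.0988 without the covariate. A call lost in that fit is therefore not by itself a smaller difference. The marker mean nearly separates the groups, from -0.13 to 0.30 in UCP1-TG and from -0.71 to 0.03 in WT, with WT4 the highest WT array. Ucp1 itself did not pass in that fit (0.25, adjusted p 0.859). The part of fat in the members' differences was not tested beyond this.

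Among the members, the probes of higher genes were dimmer than the others. The median log2 Cy5 signal was 10.3 for the 16 higher, 11.1 for the 11 lower and 11.4 for the 49 genes that did not pass. The rank correlation of difference with signal was -0.38 over the 76 members, -0.40 in the large and -0.36 in the small subunit, against -0.02 over all genes and -0.03 over the 8421 genes in the same range of signal. Genes share the arrays and the loess fit, so these are descriptions without a test, and the part of brightness in the calls was not tested.

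**Figure D5:**
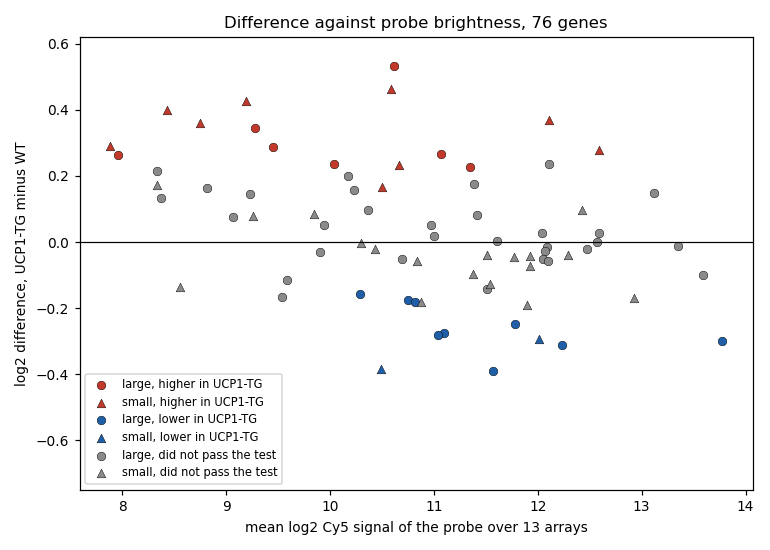
Log2 difference (UCP1-TG minus WT) of the 76 genes against the mean log2 Cy5 signal of the probe over 13 arrays, with circles for the large and triangles for the small subunit, red for higher, blue for lower and grey for genes that did not pass. The 16 higher genes have a median signal of 10.3 and the 11 lower genes one of 11.1; the dimmest lower gene lies at 10.3.

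Among genes around the ribosome, taken from lists of mitochondrial translation and assembly, 15 of 60 measured were higher and 1 was lower after loess, with a median difference of 0.07. These are 25% and 1.67%, beside 16.8% and 16.1% over all genes. The count became 2 higher and 0 lower under median centring, and 1 higher and 2 lower with the adipocyte covariate. Without WT4 it was 16 higher and 1 lower, and all 11 genes named from these lists kept their call. Among the mitoribosomal proteins that carry other names, 3 of 7 were higher: Gadd45gip1, a large subunit protein also called Crif1 (0.31, adjusted p 0.0109), Ptcd3, a small subunit protein with RNA-binding repeats (0.27, 0.0331) and Ict1, a peptidyl-tRNA hydrolase built into the large subunit (0.24, 0.00607). Gadd45gip1 read -0.45, 0.09 and 0.22 in UCP1-TG (lowest, median, highest) and -0.41, -0.28 and -0.18 in WT, so 1 UCP1-TG array lay below all WT arrays.

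Of the 18 genes listed under translation factors only Mpv17l2 passed (5.56% higher, beside 16.8% over all genes). Mpv17l2 is a membrane protein needed for ribosome assembly. It read -0.14, 0.05 and 0.17 in UCP1-TG and -0.31, -0.21 and -0.14 in WT, with a difference of 0.26 ± 0.067 (SE) and an adjusted p of 0.00466. The groups touched without overlapping. The elongation and initiation factors were not among the called genes.

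Among 23 measured genes of ribosome assembly and ribosomal RNA modification, 5 were higher (21.7%) and 1 lower (4.35%). Over all genes 16.8% were higher and 16.1% lower, so the higher share lies near that over all genes. Tfb1m, which methylates the small ribosomal RNA, had the largest difference at 0.43 ± 0.088 (SE), with an adjusted p of 0.000778. It read 0.07, 0.33 and 0.49 in UCP1-TG (lowest, median, highest), against -0.48, -0.05 and 0.09 in WT, where WT4 was the highest. Mterfd1 (0.31, 0.0177) and Mtg1, a GTPase of large subunit assembly (0.31, 0.0172), were also higher. Rbfa, a small subunit assembly factor, was lower by contrast, at -0.22 ± 0.064 (SE) with an adjusted p of 0.0117.

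Mitochondrial tRNA modification had the highest share of these 4 lists, with 6 of 12 genes higher (50%), none lower and a median of 0.21. Over all genes 16.8% were higher and 16.1% lower. Without WT4, 7 of the 12 were higher and none lower. Pus1, a pseudouridine synthase, read 0.03, 0.28 and 0.51 in UCP1-TG (lowest, median, highest) and -0.21, -0.11 and -0.03 in WT. The groups did not overlap, and the difference was 0.37 ± 0.072 (SE) with an adjusted p of 0.000529. Qtrt1, a subunit of the enzyme that puts queuine into tRNA, did not overlap either (0.36, adjusted p 0.00140), and Trnt1, which adds the CCA end to tRNA, followed at 0.32 (0.00249). Pus1, Qtrt1 and Trnt1 also serve transfer RNAs outside mitochondria. The cytosolic ribosomal proteins, as a scale for the size of these shifts, had 62 of 76 genes higher, none lower and a median of 0.35. The difference between the ribosome families was not tested.

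Many members share their start region with a gene on the opposite strand. Of the 67 members with a RefSeq promoter, 25 (37.3%) had a divergent neighbour whose start lies within 1000 bases, against 12.2% of genes in the table. For 23 of them the partner was measured: 1 partner was higher in UCP1-TG, 3 were lower and 19 did not pass. Over all genes 16.8% were higher and 16.1% lower, and whether the partners differ from other genes was not tested. Mrpl55 and its partner 2610507I01Rik, 55 bases apart, were both lower (-0.31 and -0.32). Mrpl18 and Tcp1, a subunit of the cytosolic chaperonin, start 238 bases apart and went in opposite directions, with Mrpl18 at -0.39 and Tcp1 at 0.19 (adjusted p 0.0304). Mrpl47 did not pass at 0.20, while its partner Ndufb5, a complex I subunit, was lower at -0.54. A dimmer Mrpl47 probe gave 0.28 and passed (adjusted p 0.00705 over probes). Its still dimmer probes gave -0.12 and -0.01 and did not pass. Mrpl46 and Mrps11 are members of both subunits that start 42 bases apart, and neither passed (0.08 and -0.14). These genes were picked after their values were seen.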

How the data were processed

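RNA of gastrocnemius muscle from 7 UCP1-TG and 6 WT mice was measured on 2-colour arrays, 1 per mouse, starting from 200 ng of total RNA per the labels' protocols. The Cy5 channel held the mouse and the Cy3 channel a common pool, and dyes were not swapped. Per the file headers, spot and local background intensities are linear and were written by Agilent Feature Extraction 10.5.1.1, which the submitters' processing notes also name. The deposited files also hold flags and numbers of other kinds and, per the file headers, the log10 ratio of Cy5 over Cy3. The authors' value table of 25583 probes was taken as log2 values; per the labels' design text it was normalized together with a larger series, while its filter and method are not given in these sources.

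With limma 3.58.1 (R 4.3.3), mean signals were corrected by normexp (offset 50) and log2 ratios were fitted by loess array by array. Control and outlier spots had weight 0. Kept were probes whose Cy5 signal was flagged as well above background on 6 or more of 13 arrays (22716 of 55681, 40.8%), and the brightest kept probe stood for each of 17257 genes. Groups were compared with lmFit and eBayes (two-sided), adjusted by Benjamini-Hochberg over all genes at 0.05. Intervals are 95%. The number of arrays limits the precision. The labels call the samples individual mice. Only the fit was tested on simulated data, with independent noise for each gene, which does not test the normalization or effects of array and slide.

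The members and the gene lists were chosen with earlier results of these data known. Values on every array go to the genes a fixed rule names: per subunit, up to 6 higher and 6 lower genes past the threshold whose groups do not overlap, the 2 with the largest difference that did not pass, genes of special position (Mrps18a, Mrps18b, Mrps18c, Mrps30, Mrps36 and Mrpl12), and up to 3 higher and 3 lower genes per list; others are said to be chosen after their values were seen. Probe positions are those of the array design (mm9); no annotation of that build was used here. Alternatives covered the normalization, source of values, offset, filter, probe rule, outlier spots, slide, replicate number, single arrays and adipocyte markers.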

Additional observations from a re-analysis of the deposited data

Results flagged for a closer look

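Among the 152 groups of array values checked for the members, 18 held an array set apart from the rest of its group (a gap to the nearest array above Dixon's 95% value), and chance flags about 1 in 20 groups. The arrays TG6 and TG7 were set apart 5 times each, TG2 3 times, WT2 and WT6 2 times each and WT1 1 time. TG6 was the lowest UCP1-TG array for Mrpl9 (-0.16), Mrpl27 (-0.25), Mrpl17 (-0.20), Mrpl19 (-0.40) and Mrps31 (-0.46). TG7 was the highest for Mrpl32 (0.16), Mrpl13 (0.035) and Mrpl36 (-0.014), and the lowest for Mrpl33 (-0.49) and Mrps28 (-0.36). TG2 was the lowest for Mrpl15 (-0.34), Mrps18c (-0.37) and Mrps16 (-0.48). In WT mice, WT2 was the lowest array for Mrpl17 (-0.36) and Mrpl40 (-0.21), WT6 the lowest for Mrpl43 (-0.57), WT6 the highest for Mrpl52 (-0.11) and WT1 the highest for Mrpl10 (0.021).

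Ucp1 on the array labelled WT4 read 0.45, far above the other WT arrays, which lay at -2.82 or below. Without that array the Ucp1 difference was 3.91 ± 0.196 (SE, adjusted p 2.66e-11 in limma), against 3.23 ± 0.50 (SE, adjusted p 5.53e-05) with it. WT4 was also the highest WT array in the mean of the white adipocyte markers, at 0.03. Its correlations with the other arrays over all genes are given above, and what set its Ucp1 value apart was not tested.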

How the results depend on the processing

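Counts not named here stayed within 1.5 times those reported. Under median centring without loess, the large subunit had 1 higher and 0 lower genes (median 0.30), the small subunit 2 and 0 (median 0.26), the translation and assembly list 2 and 0, and all genes 1041 and 265; Mrpl34 (0.087), Mrpl36 (0.079), Mrpl48 (0.044), Mrpl50 (0.087), Mrpl51 (0.037), Mrps16 (0.0010) and Rbfa (0.0059) turned positive, each below that setting's median over all genes of 0.14. With the adipocyte covariate the large subunit had 0 higher and 1 lower (median -0.066), the small subunit 1 and 1, the list 1 and 2, all genes 863 and 873; Ucp1 was 0.25 and Ptcd3 -0.0052. By the authors' own values, 2 large, 1 small and 0 list genes were lower, with medians of 0.085 and 0.030. Agilent's log ratio gave 11 large genes higher, and 4 small and 5 list genes lower. Cy5 alone and an offset of 10 each gave 5 large genes lower. The mean over probes gave 2 list genes lower and turned the Mrpl50 difference to 0.00489. The slide as a fixed block gave 5 small and 3 list genes lower, and as a random block 2 list genes. Within slides the large median was -0.084 on slide 1, the small median 0.035 on slide 2 and 0.047 on slide 4, and Ucp1 was -0.13 on slide 3, the slide of WT4. Leaving out single arrays gave 7 to 9 higher and 5 to 9 lower large genes (5 without WT1), 6 to 10 higher and 2 to 3 lower small genes, and 1 to 2 lower list genes (2 without WT2 or TG2). With the replicate number as a block, 8 large genes were higher and 7 lower, 7 small genes higher and 2 lower; same-numbered samples correlated from -0.23 to 0.23 and 1 of 6 best with its own number, so the numbers were not taken as pairs. Testing each kept probe on its own, added after seeing the data, put at least 1 probe of 9 large genes higher and of 8 lower, and of 9 small genes higher and of 3 lower. The cause was not tested for any of these. Scan time splits the arrays exactly as the slide does and gave no separate value. All members were above background on all 13 arrays.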
